A study of Mus musculus with 3 samples.

Results

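The 6 genes described here are Gdf15, Oser1, Gstp1, Ppcs, Cdkn1a and Ddit3, of 11979 genes listed in all 3 count tables of sorted mouse brain myeloid cells (14221 genes in any of them). They were picked by name, as genes read higher in the microglia of an MHC class II-deficient mouse together with stress-response relatives. The values that chose them are the same levels in the deficient and wild type (WT) libraries that are given below, so the comparison of genotypes is a description with no test for these genes. The name of the group, raised stress genes, held in the tables for Gdf15, Oser1, Gstp1 and Ppcs. It did not hold for Cdkn1a and Ddit3, which were lower in the deficient microglia than in both WT libraries.

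Single-cell RNA libraries came from CD11b+ CD45+ cells sorted from mouse brain, with 1 library for each of 2 WT animals, which the labels call adult, and 1 library for a mouse that lacks MHC class II and has very few CD4 T cells. The deficient animal's age, the class II allele and the strain of either group are not given in the labels, so age and genotype cannot be told apart from the sources used here. The series asks whether microglia, the resident macrophages of the brain, need CD4 T cells to mature. The classical class II genes H2-Aa, H2-Ab1 and H2-Eb1 were listed in both WT tables, at 2624 to 4462 unique molecular identifiers (UMIs) each, and in the deficient table none of them was listed. One library is all there is of the deficient genotype, and no spread between deficient animals was measured.

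GDF15 is a secreted cytokine of the TGF-beta superfamily that stressed cells release and that acts on the brainstem receptor GFRAL with RET. Its gene and DDIT3 (CHOP, a C/EBP-family transcription factor) are classical targets of the integrated stress response, in which phosphorylation of eIF2 alpha lowers overall translation and raises ATF4. GDF15 and CDKN1A (p21, an inhibitor of cyclin-dependent kinases) are also p53 targets. OSER1 is a serine-rich protein that responds to oxidative stress and lies downstream of FOXO factors, GSTP1 joins glutathione to reactive compounds, and PPCS catalyses a step of coenzyme A synthesis from pantothenate. Microglia taken from tissue by digestion also carry immediate early transcripts such as Fos, Jun and Egr1, which cells induce within minutes of a stimulus.

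The start regions of the genes are shown so that the letters upstream of each gene can be set beside its levels by cell state. Windows of 300 bases, 250 before to 50 after a RefSeq transcription start (GRCm38.p6, the assembly also called mm10), were found for all 6 genes. Those of 5 genes and of the Gstp1 copy Gstp2 are printed 5′ to 3′ on the gene's strand with each motif match in capitals; the Ppcs window and a second Cdkn1a window are not printed. The motifs, searched on both strands, were the AP-1 site TGANTCA (in 7.81% of 32851 mouse windows of this length), the cAMP response element TGACGTCA (1.79%), the C/EBP-ATF response element TGATGNAAT (0.965%), the antioxidant response element TGACNNNGC (12.4%), the FOXO site GTAAACA (3.65%), the E-box CACGTG (7.15%) and the p53 half-site (8.36%).
Gdf15 (chr8:70632407-70632706, minus strand, no match): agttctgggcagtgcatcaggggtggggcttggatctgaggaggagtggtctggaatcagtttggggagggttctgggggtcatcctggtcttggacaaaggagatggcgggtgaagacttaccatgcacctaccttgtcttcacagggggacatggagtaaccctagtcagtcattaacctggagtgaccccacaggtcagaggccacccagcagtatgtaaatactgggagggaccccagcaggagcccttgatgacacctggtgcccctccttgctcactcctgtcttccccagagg
Gdf15, second start (chr8:70632046-70632345, minus strand): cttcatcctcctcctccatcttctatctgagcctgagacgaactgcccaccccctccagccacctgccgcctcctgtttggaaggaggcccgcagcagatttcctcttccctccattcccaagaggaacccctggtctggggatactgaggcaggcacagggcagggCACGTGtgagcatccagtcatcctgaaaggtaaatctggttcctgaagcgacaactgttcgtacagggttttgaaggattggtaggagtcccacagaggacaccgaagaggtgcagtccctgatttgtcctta
Oser1 (chr2:163419421-163419720, minus strand): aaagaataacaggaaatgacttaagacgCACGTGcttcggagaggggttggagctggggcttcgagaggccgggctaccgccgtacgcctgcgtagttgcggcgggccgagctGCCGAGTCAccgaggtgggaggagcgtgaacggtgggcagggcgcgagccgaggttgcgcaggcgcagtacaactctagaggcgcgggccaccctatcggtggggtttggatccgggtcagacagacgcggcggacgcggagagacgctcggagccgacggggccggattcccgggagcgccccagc
Gstp1 (chr19:4037863-4038162, minus strand): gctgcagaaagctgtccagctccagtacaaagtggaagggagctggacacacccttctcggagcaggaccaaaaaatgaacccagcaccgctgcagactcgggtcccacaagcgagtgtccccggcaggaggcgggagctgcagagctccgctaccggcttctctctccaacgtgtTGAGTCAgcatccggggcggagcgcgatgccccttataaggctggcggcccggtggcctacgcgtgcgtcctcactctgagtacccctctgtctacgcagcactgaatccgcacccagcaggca
Gstp2 (chr19:4042172-4042471, minus strand): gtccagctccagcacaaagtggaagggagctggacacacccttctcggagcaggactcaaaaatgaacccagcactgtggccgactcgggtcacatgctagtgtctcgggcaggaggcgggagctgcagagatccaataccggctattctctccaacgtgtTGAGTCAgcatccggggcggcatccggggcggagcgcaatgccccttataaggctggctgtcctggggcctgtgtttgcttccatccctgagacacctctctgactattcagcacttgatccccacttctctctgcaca
Cdkn1a (chr17:29090729-29091028, plus strand): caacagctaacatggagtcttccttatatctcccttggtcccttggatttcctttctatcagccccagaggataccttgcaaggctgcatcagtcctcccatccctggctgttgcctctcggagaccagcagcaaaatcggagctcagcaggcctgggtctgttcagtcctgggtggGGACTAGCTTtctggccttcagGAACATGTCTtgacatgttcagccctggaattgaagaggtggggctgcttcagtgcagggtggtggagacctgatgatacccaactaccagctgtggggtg
Ddit3 (chr10:127290543-127290842, plus strand): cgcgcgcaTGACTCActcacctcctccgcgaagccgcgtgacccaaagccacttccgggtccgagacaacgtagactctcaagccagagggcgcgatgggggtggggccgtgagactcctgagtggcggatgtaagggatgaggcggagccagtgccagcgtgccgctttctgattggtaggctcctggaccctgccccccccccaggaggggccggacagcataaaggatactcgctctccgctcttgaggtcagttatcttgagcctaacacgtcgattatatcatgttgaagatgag

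The Oser1 window held an E-box and, on the opposite strand, an antioxidant response element. Gstp1 and its copy Gstp2 each held 1 AP-1 site, and so did Ddit3. The upstream start of Cdkn1a held 2 p53 half-sites, the second Cdkn1a start held 1 antioxidant response element, and the second Gdf15 start held 1 E-box. The Ppcs window held none of these motifs. A match is a stretch of letters and shows no binding, and a window with no match says only that these letters are not in it.

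In GENCODE release M21 on the same build, Gdf15 lies at chr8:70629393-70632456, Oser1 at chr2:163405822-163424697, Gstp1 at chr19:4035407-4037985, Ppcs at chr4:119418530-119422420, Cdkn1a at chr17:29090976-29100727 and Ddit3 at chr10:127290774-127296288, all protein-coding. Some of these positions limit what a count can mean. The annotation holds a second gene model also named Ddit3 inside the first, and the 3′ end of Ddit3 shares 68 bases with Mars on the opposite strand. Its first bases share 15 with Gm4189 on the opposite strand. Oser1 and Cdkn1a overlap 2900093K20Rik and AC167363.2 there, the first within an intron. Whether the counting used strand is not given in the sources used here, so reads of such pairs may not be separable. The Gstp1 and Gstp2 transcripts were identical over the last 369 bases, which is the end that a 3′ library reads, and 91.2% identical over their whole length.

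Of the sorted cells, 4340 (WT 1), 4666 (WT 2) and 2229 (deficient) passed filters, and 3696, 4187 and 2119 of these were microglia-like by clusters and markers. The microglial markers P2ry12, Tmem119 and Sall1 were present in all 3 libraries, at 4224, 4812 and 4129 CPM for P2ry12 (CPM being a gene's share of all UMIs of the cells summed, on the usual scale). Median depth was 3390, 3332 and 2821 UMIs per microglia-like cell, with 13209717, 14919825 and 6150395 UMIs in all. The libraries shared 13 to 30 cell barcodes by pair. Neutrophil transcripts were spread over WT microglia: the 12 neutrophil markers summed to 1227, 641 and 50.6 CPM in microglia-like cells, with 1 marker at 0 in the deficient library, while neutrophil-like cells numbered 282, 134 and 19. The part of these differences in the results below was not tested. The median share of UMIs in 24 immediate early genes was 0.899%, 0.555% and 0.234%.

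In a ranking of the 6086 genes whose mean reached 20 CPM, the fold changes of 4 members placed them 4th (Gdf15), 5th (Oser1), 7th (Ppcs) and 9th (Gstp1), below Ccr6, Tagap1 and Ddit4. The genes next to them by log2 fold change were Ddit4 (1.87) above Gdf15, Ifi27l2a (1.20) and Snhg20 (1.10) around Ppcs, and Dynlt1c (0.97) below Gstp1. Over all 11838 genes tested, edgeR's quasi-likelihood test called 1.75% higher and 6.6% lower at an adjusted p under 0.05. No call is given for the 6 genes, since these levels were used to choose them. The cut at 20 CPM bears on the ranks: Ppcs and Gdf15 had means of 21.5 and 22.3 CPM, and over all 11838 genes 15 had a higher fold change than Gdf15, 41 than Oser1, 107 than Ppcs and 129 than Gstp1.

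Gdf15 had 18.0 CPM in WT 1, 6.57 in WT 2 and 42.3 in the deficient library, from 238, 98 and 260 UMIs. The deficient library was the highest, but the WT libraries were themselves far apart, with a log2 difference of -1.32 (WT 2 minus WT 1). The log2 fold change was 1.81, and 2.51 or 1.20 when the deficient library was set against WT 2 or WT 1 alone. Gdf15 was also the member found in the fewest cells, 97, 29 and 53 by library. In WT 2, 39 of its 98 UMIs came from 1 cell, and without that cell the level was 3.96 CPM. In the deficient library 53 cells held all 260 UMIs, and the 10 highest of these held 49.2%.

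Oser1 differed little between the WT libraries. Its level was 62.3 and 62.9 CPM in these and 169 in the deficient one, from 823, 939 and 1041 UMIs, a log2 fold change of 1.44 (1.41 and 1.44 against each WT library). The 95% counting interval of the deficient value was 159 to 180. It covers counting error only, not the spread between cells or animals, and the 10 highest deficient cells held 19.2% of the UMIs. Per cell with any Oser1, the mean was 1.15 and 1.12 UMIs (WT) and 1.94 UMIs (deficient). In the deficient library 38 cells had at least 5 UMIs, and in each WT library 0 did.

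Gstp1 and Ppcs, the pair of enzymes, were low. Gstp1 had 18.2, 16.6 and 36.3 CPM and Ppcs 15.4, 15.01 and 34.0, so in each the deficient library stood above the range of the WT libraries. Their log2 fold changes were 1.07 and 1.16. Between 93.3% and 97.2% of the cells with a UMI of either gene had exactly 1. Counts this low do not show whether a gene was spread evenly over cells. For Gstp1 the copy Gstp2 added 21, 17 and 17 UMIs, and the sum of both was 19.8, 17.7 and 39.0 CPM. The third copy, Gstp3, was in none of the 3 tables.

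Cdkn1a and Ddit3 went the other way. Cdkn1a had 85.0, 87.4 and 48.6 CPM, a log2 fold change of -0.82, with the WT libraries close together. Ddit3 had 81.5, 70.0 and 54.5 CPM, a log2 fold change of -0.47, and here the WT libraries differed by more than their counting intervals. The share of immediate early UMIs, given above, was lower in the deficient microglia as well, and its part in these levels was not tested.

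**Figure D1:**
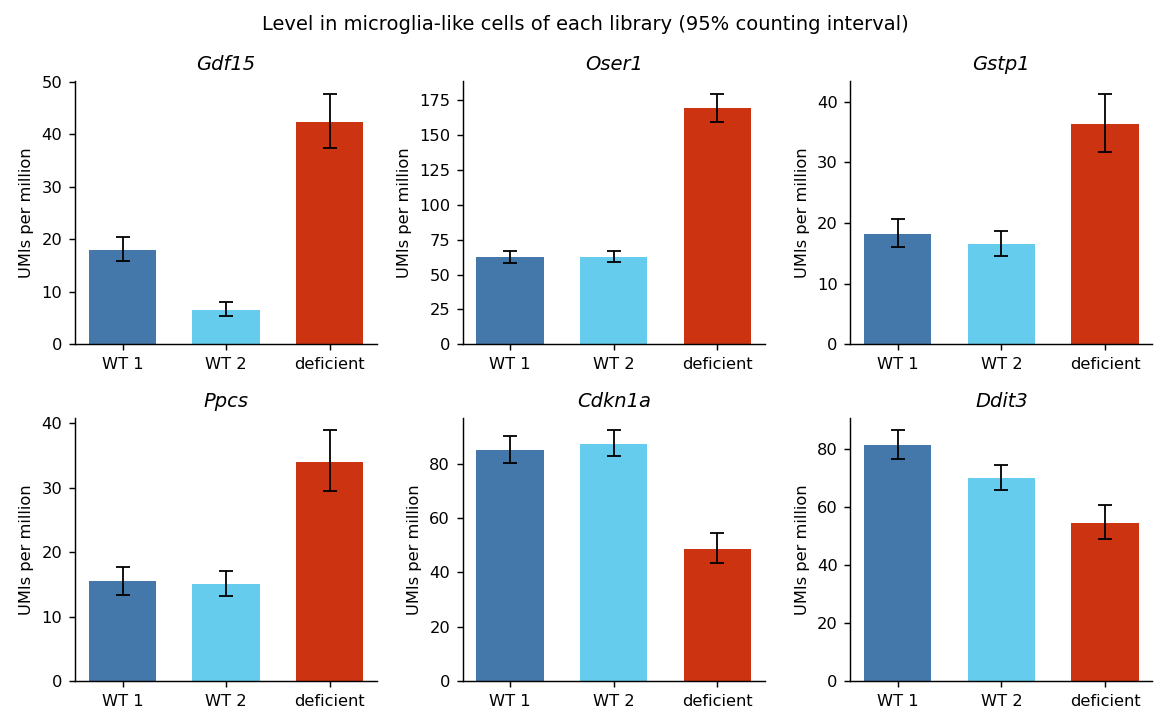
CPM (vertical axis, from 0) of each gene in the microglia-like cells of WT 1, WT 2 and the class II-deficient library; each bar is 1 library and the lines are 95% Poisson intervals for counting error only. The deficient bar is highest for Gdf15, Oser1, Gstp1 and Ppcs and lowest for Cdkn1a and Ddit3.

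The share of microglia-like cells with a UMI gave a different order for Gdf15. It was detected in 2.62% of WT 1 cells, 0.693% of WT 2 cells and 2.50% of deficient cells, so WT 1 and the deficient library did not differ beyond their binomial intervals (2.13% to 3.19% and 1.88% to 3.26%). After each cell was thinned to 1000 UMIs, which left out 57, 50 and 44 shallower cells, the shares were 0.989%, 0.242% and 1.64%, and the intervals of WT 1 (0.694% to 1.37%) and the deficient library (1.14% to 2.28%) still overlapped. Oser1 was detected in 19.3%, 20.1% and 25.3% of cells, and in 5.99%, 5.51% and 11.6% after thinning. Gstp1 (6.25%, 5.71% and 9.86%) and Ppcs (5.19%, 5.21% and 9.34%) were in more deficient than WT cells at full depth, and in 3.66% and 3.18% of deficient cells after thinning against at most 2.15% in WT. Cdkn1a was in 11.0%, 10.9% and 5.24% of cells and Ddit3 in 19.5%, 16.3% and 12.3%. After thinning, Cdkn1a was in 4.20%, 4.16% and 2.41%, while the intervals of Ddit3 in WT 2 (4.95% to 6.38%) and the deficient library (3.85% to 5.73%) overlapped.

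As a gauge of free RNA, neutrophil-like cells, at median depths of 2991, 2966 and 1708 UMIs, had Gdf15 in 1.06%, 0 and 0 of cells. The 0 of 134 cells in WT 2 allows a share of up to 2.24% and the 0 of 19 in the deficient library one of up to 15.8%, so the 0.693% of WT 2 microglia cannot be separated from that class at this number of cells. Ppcs was in 0.355% and 1.49% of WT neutrophil-like cells and in 0 of the 19 deficient ones. Gstp1 was in 3.19% and 2.99% of WT neutrophil-like cells, below microglia, but in 10.5% of the deficient ones (2 of 19), against 9.86% of deficient microglia. Oser1 was in 8.87%, 14.2% and 15.8% of neutrophil-like cells, also below microglia. Cdkn1a was in 4.96%, 5.97% and 5.26% and Ddit3 in 13.1%, 14.2% and 15.8% of neutrophil-like cells, so the shares over all deficient microglia (5.24% and 12.3%) were not above those of the 19 deficient neutrophil-like cells. None of these genes is known to be absent from neutrophils, so the gauge is rough.

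**Figure D2:**
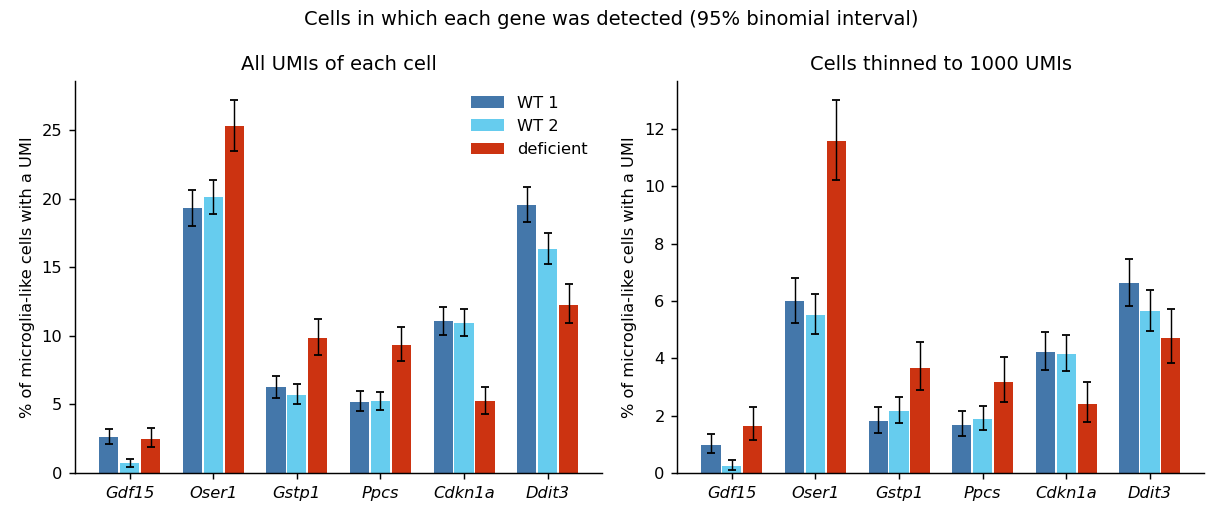
Percent of microglia-like cells with at least 1 UMI of each gene (vertical axes, from 0) by library, with all UMIs (left) and after thinning each cell to 1000 UMIs (right); lines are exact binomial (Clopper-Pearson) 95% intervals for counting error. Gdf15 is the gene whose WT 1 and deficient bars are close on the left (2.62% and 2.50%) and further apart, with overlapping intervals, on the right (0.989% and 1.64%).

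Microglia-like cells were divided into 6 sub-clusters, from which the 6 genes had been left out as clustering input. M0, 47.0% and 67.8% of WT microglia but 2.55% in the deficient library, was led by Rnaset2b and Btbd1. M1, 39.8%, 19.6% and 8.78% of microglia, was led by the chemokines Ccl3 and Ccl4 and the heat shock genes Hspa1a and Hspa1b. M2 was 84.1% of deficient microglia against 1.49% and 3.53% in WT, and was led by Ccr6 and Tagap1. M3 was led by Maff, Klf4, Fosb and Atf3, and held 10.9%, 7.76% and 3.68% of microglia. M4 and M5, led by Lpl and Cst7 and by Top2a and Mki67, held 79 and 23 cells. Since M0 and M2 nearly split the genotypes, a sub-cluster can stand for a library as much as for a state.

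Gdf15 was concentrated in M1 and M3 of the deficient library, at 186 and 337 CPM, against 31.5 and 13.2 in M1 and 23.0 and 7.11 in M3 of the WT libraries. In M2, which held most deficient microglia, Gdf15 was at 7.62 CPM. In M0 it was at 2.51 and 0.522 in WT, and 0 UMIs were found in the 54 deficient cells, which allows a share of up to 5.56% of cells. Oser1 had the same 2 high points, 509 and 727 CPM in deficient M1 and M3. Its levels in deficient M0 and M2 were 84.8 and 95.4, above every WT value of M0 to M2 (39.4 to 62.0). The interval in deficient M0 (45.1 to 145) overlaps that range. In M3 Oser1 was higher in WT as well, at 89.7 and 88.9 CPM, between the values of deficient M0 and M2.

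Gstp1 and Ppcs had no such high points. In the deficient library Gstp1 lay at 26.1, 32.8 and 38.7 CPM in M0, M1 and M2, and Ppcs at 39.1, 35.9 and 34.9. The highest WT values were 19.5 for Gstp1 and 16.9 for Ppcs, except for Gstp1 in M2 of WT 1 (39.4, from 4 UMIs). In M3 Gstp1 was at 16.0, 11.9 and 13.3 CPM (WT 1, WT 2, deficient) and Ppcs at 10.5, 10.7 and 10.0, the deficient values from 4 and 3 UMIs. Of the deficient UMIs, 78.0% for Gstp1 and 73.2% for Ppcs came from cluster 2 of the clustering of all cells, the group that held 1575 of the 2119 deficient microglia.

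Cdkn1a and Ddit3 were highest in M3 in every library. Cdkn1a reached 362 and 516 CPM in M3 of WT and 627 in M3 of the deficient library, so within that sub-cluster the deficient value was the highest of the libraries, opposite to the value over all microglia. Its interval (540 to 723) overlapped that of WT 2 (483 to 552) and not that of WT 1. In M1 the libraries lay at 48.0, 51.3 and 57.8. In the deficient library 56.4% of M3 cells had a UMI of Cdkn1a, against 2.47% of M2 cells. Ddit3 was at 254, 289 and 207 in M3 and between 29.6 and 51.4 in M0, M1 and M2 of all libraries.

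**Figure D3:**
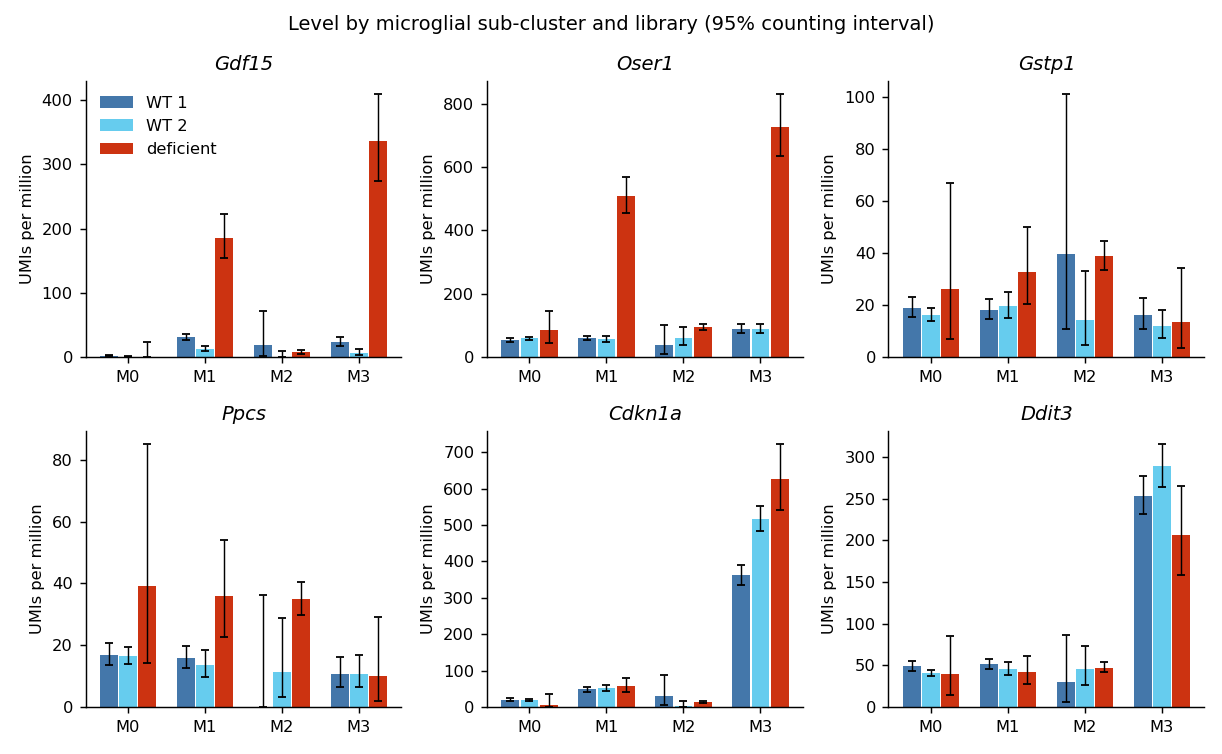
CPM (vertical axes, from 0) of each gene in microglial sub-clusters M0 to M3, by library; lines are 95% Poisson intervals for counting error. Gdf15 and Oser1 stand out in deficient M1 and M3, Cdkn1a and Ddit3 in M3 of all libraries, and Gstp1 and Ppcs show no peak.

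In the clustering of all cells, 1 group drew attention after its values were seen. Cluster 10 held 244 deficient cells and 0 and 6 WT cells, and was led by Gdf15, Tagap1, Oser1, Ccr6 and Tnf. As the 6 genes had not entered the clustering, they did not set its borders directly, but it is still a group chosen for its values. It contributed 220 of the 260 deficient Gdf15 UMIs (84.6%) and 45.9% of those of Oser1. Within it Gdf15 was at 267 CPM in 16.0% of cells and Oser1 at 581 in 46.3% of cells. The other deficient microglia had Gdf15 at 7.51 CPM, between the levels of WT 1 (18.0) and WT 2 (6.57), and Oser1 at 106, still above both. Without cluster 10 the log2 fold change was -0.70 for Gdf15 and 0.74 for Oser1, and it was 1.19 for Ppcs and -0.91 for Cdkn1a. The naming rule that looks only at other cell classes also leaves out cluster 10, with the same values. Either step removes almost only deficient cells. Cluster 6, also of high immediate early share (medians 3.13%, 3.07% and 3.32%), stayed in with 401, 138 and 15 cells (WT 1, WT 2, deficient). The median immediate early share of cluster 10 was 2.26%, against 0.184% in deficient cluster 2. Its part in the result was not tested.

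A split within each library ranked cells by a score that the choice of genes had not used. The deficient counts by which genes were picked as higher enter this comparison too. The microglia-like cells of each library were ranked by the share of their UMIs in the immediate early genes, none of which is a member, and the highest and lowest of 3 equal parts were compared with the library as a block. edgeR called 9.33% of 10725 genes higher and 5.04% lower in the upper part. Median depth was 3691, 3411 and 2965.5 UMIs in the upper parts and 3212.5, 3318.5 and 2747 in the lower.

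Gdf15 was higher in the upper part in 3 of 3 libraries, going from 1.23 to 40.8 normalised CPM in WT 1, from 0.418 to 17.5 in WT 2 and from 1.49 to 118 in the deficient library. The lower parts held 5, 2 and 3 UMIs and the upper parts 198, 93 and 255. Gdf15 passed the filter on low counts through the upper parts, so its fitted log2 difference of 5.68 is a description with no test. Cdkn1a rose by 3.31 (SE 0.12, edgeR adjusted p 8.08e-13), from 25.3 to 185, from 21.5 to 203 and from 6.47 to 121. Ddit3 rose by 1.58 (SE 0.12, edgeR adjusted p 4.16e-08). Its ratios were alike in WT, 47.0 to 136 and 36.6 to 122, and smaller in the deficient library, 46.8 to 74.2.

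Oser1 was picked as higher in the deficient library, where 702 of its 1041 UMIs lay in the upper part. Its fitted log2 difference of 0.95 is therefore a description with no test, and most of it came from 1 library. In the WT libraries Oser1 went from 55.3 to 67.9 and from 61.0 to 66.8, while the deficient library went from 80.7 to 326. Without the deficient library the log2 difference of Oser1 was 0.35 (edgeR adjusted p 0.00133). Gstp1 and Ppcs were picked as higher in the same way. Their fitted log2 differences of -0.00 (SE 0.14) and -0.11 (SE 0.15) are therefore also a description with no test. For each, the upper part was higher in 1 of 3 libraries. A test of whether the effect differed between the genotypes called 1.27% of 11078 genes. For the 6 genes, chosen on the same deficient counts, the ratios by library above are given as a description. When the upper part was left out of the genotype comparison, Gdf15 had 40, 5 and 5 UMIs, or 4.79, 0.521 and 1.25 CPM, so the deficient level lay between the WT levels. Its log2 fold change of -1.0002 there rests on WT 1 and on 5 deficient UMIs. The log2 fold change was 0.52 for Oser1, -1.37 for Cdkn1a and -0.032 for Ddit3.

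**Figure D4:**
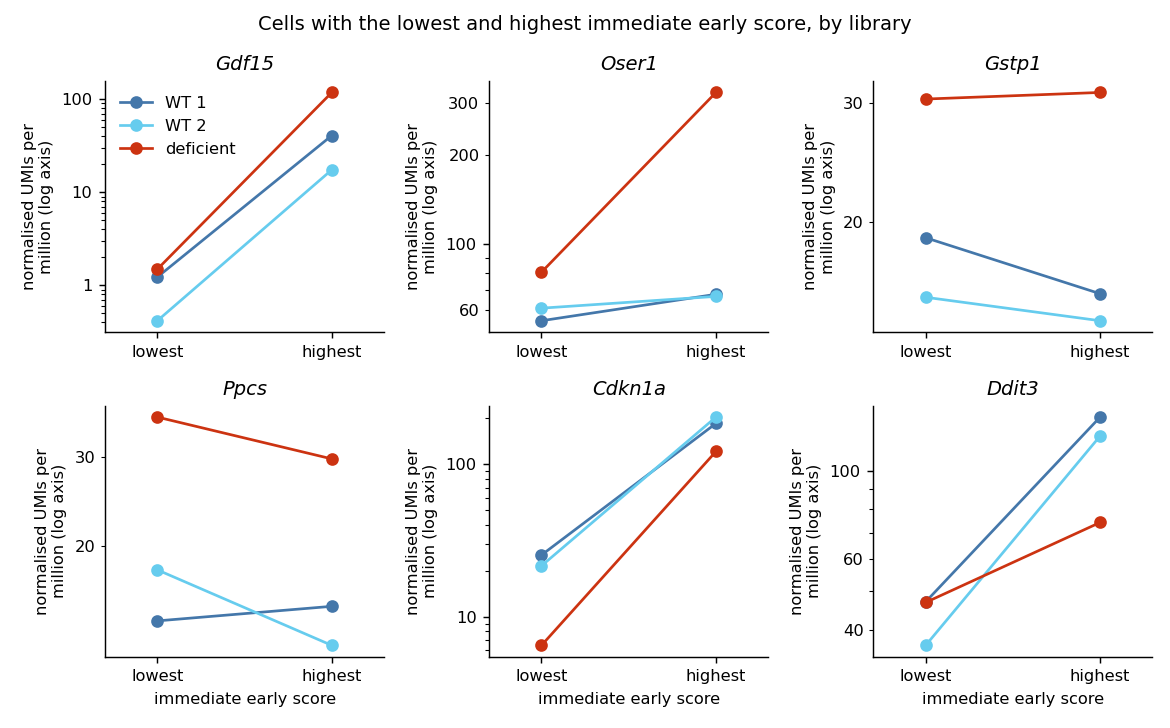
Normalised CPM (vertical axes, log scale) of each gene in the microglia-like cells with the lowest and highest immediate early score of each library, joined by a line per library. Gdf15, Cdkn1a and Ddit3 are higher in the upper part of all 3 libraries, Oser1 mainly in the deficient one, and Gstp1 and Ppcs lie level.

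At full depth, Gdf15 and Oser1 were detected in the same cells mainly in the deficient library. Of the 53 deficient microglia with a Gdf15 UMI, 34 (64.2%) also had Oser1, against 24.3% of the other deficient cells. In WT the shares were 18.6% and 24.1% among Gdf15-positive cells and 19.3% and 20.1% among the rest. Cdkn1a and Ddit3 were found together in all libraries: among cells with Cdkn1a, 40.0%, 37.6% and 27.0% had Ddit3, against 17.0%, 13.7% and 11.5% of other cells. Deeper cells hold more of any 2 genes, and these shares were not corrected for depth. With cells thinned to 1000 UMIs, 12.4%, 16.3% and 16.0% of cells with Cdkn1a had Ddit3, against 6.37%, 5.17% and 4.44% of other cells. With cells thinned to 1000 UMIs, 12 of 34 deficient cells with Gdf15 had Oser1 (35.3%, against 11.2% of the others).

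Over 12 sums of a library and a microglial sub-cluster with at least 50 cells, and with each library's mean removed, Cdkn1a and Ddit3 had a Pearson correlation of 0.86 and Gdf15 and Oser1 of 0.81. Gstp1 ran against Ddit3 (-0.74). The points share 3 libraries and differ in depth, so these values describe the sums and carry no test. Among 5940 candidate genes the closest to Gdf15 were Rpl4 (0.95), Hist1h1e (0.93) and Fth1 (0.93), and to Oser1 Fth1 (0.95), Gnl2 (0.94) and Naa15 (0.91). The closest to Gstp1 were Tspan14, Mdfi and Med9 (0.96 to 0.97), to Ppcs Idh1, Fam219b and Ift52 (0.98 to 0.99), to Cdkn1a Ftl1-ps1, Birc3 and Dusp2 (0.97 to 0.98), and to Ddit3 Eif4a1, Chchd2 and Dctn3 (each 0.99).

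Outside the microglia, cell numbers were small and values are given with their counting intervals only. Border-associated macrophage-like cells numbered 76, 68 and 15, classical monocyte-like cells 43, 30 and 4, and non-classical monocyte-like cells 10, 12 and 15. Cdkn1a was higher in border-associated macrophage-like and classical monocyte-like cells than in microglia (85.0, 87.4 and 48.6): 328, 476 and 449 CPM in border-associated macrophage-like cells and 446, 818 and 618 in classical monocyte-like cells, the last from 4 cells. Non-classical monocyte-like cells had 89.2, 182 and 212, from 4, 9 and 8 UMIs, and only the deficient interval (91.4 to 417) lay above the microglial level of its own library. Neutrophil-like cells had 24.8 and 19.4 in WT, and 1 UMI in the 19 deficient cells. In border-associated macrophage-like cells the deficient value of Cdkn1a lay between the WT values, unlike in microglia.

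Oser1 was near its microglial level in WT border-associated macrophage-like cells, 66.8 and 66.3 CPM, and stood at 240.4 (95% interval 135 to 397, from 15 UMIs) in the 15 deficient cells. This interval did not reach the WT values. In neutrophil-like cells Oser1 was at 22.2 and 37.0 (WT), with 60.0 in the deficient library (12.4 to 175, from 3 UMIs). Gstp1 was higher in WT 1 classical monocyte-like cells (61.7) than in WT 1 microglia (18.2), and at 7.98 and 7.05 in WT neutrophil-like cells. Gdf15 had 6, 2 and 0 UMIs in border-associated macrophage-like cells, 13.4 and 4.14 CPM in WT, near the WT microglial levels. It was not found in either monocyte class of any library, where the 43 classical cells of WT 1 allow a share of up to 6.98% and the smaller groups allow more. Ppcs had at most 6 UMIs in any named class other than microglia.

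**Figure D5:**
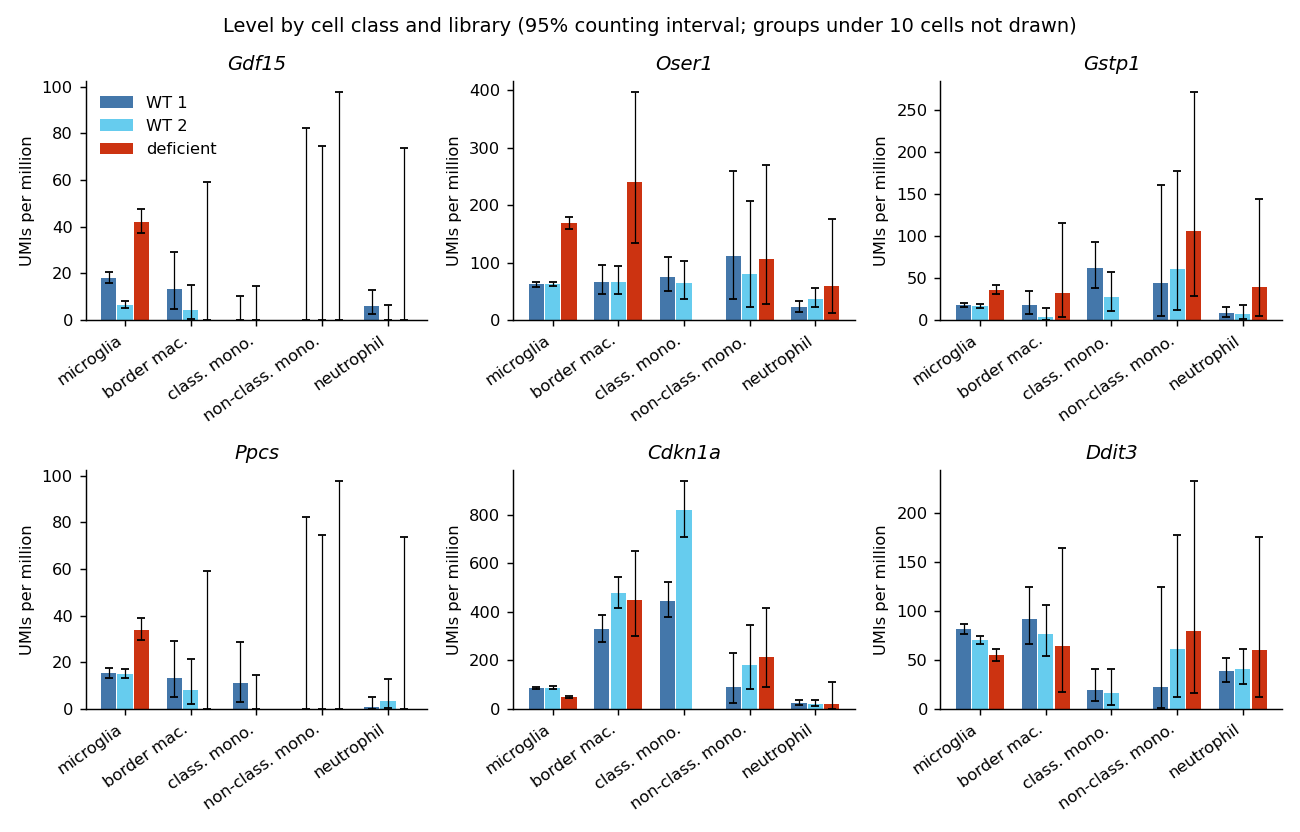
CPM (vertical axes, from 0) of each gene by cell class and library; lines are 95% Poisson intervals for counting error, and groups under 10 cells are not drawn. Cdkn1a is highest in classical monocyte-like and border-associated macrophage-like cells, and Gdf15 has no UMI in the monocyte-like cells.

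Most relatives of these genes in the lists examined did not pass the test. Of 160 measured relatives in 8 lists, 5 were called higher and 21 lower in the deficient microglia by edgeR (1.75% and 6.6% of all genes), with a median log2 fold change of -0.00, which is also the median over all genes tested. Both shares called were larger among the relatives than over all genes tested. These p-values rest on the spread of the WT pair, with 1 residual degree of freedom. DESeq2 called fewer relatives, and fewer of all genes, in both directions.

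In the integrated stress response list, 1 of 29 measured genes was called higher and 7 lower, with a median of 0.01. Ddit4, which restrains mTORC1, rose by 1.87 (SE 0.16, edgeR adjusted p 3.70e-07), from 14.7 and 22.0 normalised CPM in WT to 67.4. Atf4, the central factor of the response, fell by 0.52 (SE 0.11, edgeR adjusted p 0.00577), from 189 and 158 to 121. That call was lost with all retained cells (edgeR adjusted p 0.0626) and without the upper immediate early part (0.226). Atf3 fell by 0.88 (DESeq2 adjusted p 0.335) and Ppp1r15a, which restores translation, by 1.20 (DESeq2 adjusted p 0.406). Cebpb, a partner of CHOP, fell by 2.98 (SE 0.31, edgeR adjusted p 3.12e-06), from 86.7 and 50.6 to 8.65. Slc3a2 and Nars, an amino acid transporter subunit and a transfer RNA synthetase, had log2 fold changes of 0.04 and 0.11 and did not pass. Atf3 and Ppp1r15a are themselves early-response genes, and their levels in WT 1 exceeded those in WT 2. The immediate early share and the summed neutrophil markers had the same order, and the part of either was not tested.

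In the ER unfolded protein response list, 0 of 25 genes were called higher and 1 lower, Edem1, with a median of 0.06. Its abundant chaperones Hspa5, Calr and Pdia3 had log2 fold changes of -0.37, 0.10 and 0.17 and did not pass in this fit. Hspa5 was nevertheless called lower by DESeq2 (adjusted p 0.0228), by limma voom (adjusted p 0.0317) and by edgeR without cluster 10 (adjusted p 0.0330). In the p53 list, 0 of 28 were called higher and 5 lower, with a median of -0.08. Bbc3 (PUMA, which triggers apoptosis) fell by 2.14, from 29.4 and 22.6 normalised CPM to 5.87. Btg2, an antiproliferative gene, fell by 1.04 (DESeq2 adjusted p 0.119), and Gadd45a by 2.03. Bax and Cd82 had values of -0.03 and 0.11 and did not pass.

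In the antioxidant and glutathione list, 2 of 37 genes were called higher and 3 lower, with a median of 0.05. Hmox1, which breaks down haem, rose by 0.59 (SE 0.09, edgeR adjusted p 3.41e-04), from 108 and 99.7 normalised CPM to 156, and Gstt2, another glutathione transferase, by 0.52. Without the upper immediate early part the Hmox1 call was lost (edgeR adjusted p 0.826), and with DESeq2 that of Gstt2 (adjusted p 0.835). Gclm, a subunit of the enzyme that starts glutathione synthesis, fell by 2.09 (SE 0.17, edgeR adjusted p 1.24e-07), from 36.1 and 36.2 to 8.48. Gsr, which regenerates glutathione, fell by 1.70. Ftl1, Fth1 and Prdx1 had values of -0.06, 0.29 and 0.08 and did not pass.

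The coenzyme A list had 0 of 10 genes called higher and 2 lower, with a median of -0.14. These were the pantothenate kinases Pank1 (-2.09) and Pank2 (-1.11), which act upstream of Ppcs, while Ppcdc and Coasy, which act after it, had 0.15 and 0.06 and did not pass. With DESeq2 the Pank1 call was lost (adjusted p 0.0784). Of 17 FoxO genes, 0 were called higher and 1 lower, Foxo1 (-1.21), with a median of -0.06. Of 15 genes of cyclin-dependent kinase control, Ccnd3 (0.57) and Cdk6 (0.43) were called higher and Pcna (-0.91) and Cdkn1c (-0.63) lower, with a median of -0.14. DESeq2 did not call Ccnd3 (adjusted p 0.0987), Cdk6 (adjusted p 0.336) or Cdkn1c (adjusted p 0.585), and with all retained cells edgeR did not call Ccnd3 (adjusted p 0.450). Of the GDF15 processing and receptor list 3 of 7 genes were measured, Furin, Pcsk7 and Mmp14, and their values of 0.04, 0.00 and 0.13 did not pass. The receptor genes Gfral and Ret were not among the genes measured.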

How the data were processed

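Single-cell RNA counts were measured in sorted brain myeloid cells of 2 WT mice and 1 class II-deficient mouse. Per the labels' protocols, tissue was digested with enzymes, enriched on Percoll and sorted as viable CD11b+ CD45+ cells for a 10x Genomics 3′ v2 droplet kit. The values deposited by the authors are whole-number UMI counts, genes by barcodes, that were not normalised. The submitters' processing notes name mm10, Cell Ranger 3.0 and Seurat 2.2. The treatment of strand and of reads matching several genes is not given in the sources used here. There were 4589, 4815 and 2278 barcodes with 16230216, 17293844 and 6616662 UMIs. A gene missing from a table was not measured as 0, and the fits used only genes listed in all 3 tables. In the clustering and the choice of leading genes, however, such a gene was entered as 0 for that library. The effect of this on the clusters was not tested.

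A cell was retained at 500 or more UMIs and 200 or more genes if mitochondrial UMIs made up no more than 10%. Scrublet called 29 of 11264 cells (0.257%), which is taken to mean that it did not work, so doublets can remain. Cells were clustered (scanpy 1.11.5, leidenalg 0.10.2, Python 3.11.15; 2000 variable genes, 30 components, resolution 1; microglia 0.5) with the 6 genes, their relatives, class II and sex-linked genes left out of the variable genes. Clusters were named from marker lists, by thresholds set with the data in hand. Unnamed clusters held 233, 235 and 57 cells.

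For each library the counts of its microglia-like cells were added up, and the sums were fitted with edgeR 4.0.16 (quasi-likelihood, TMM, filterByExpr; R 4.3.3) with Benjamini-Hochberg adjustment at 0.05, over all genes listed in all 3 tables. The comparison of score parts had the library as a block. Fold changes without a WT library are log2 ratios of normalised CPM plus 1, a different measure from the fitted values. The scripts were tested on simulated data. Intervals are 95% and exact, for counting error only. Levels are in CPM of the cells named, and normalised ones are scaled by TMM factors. Alternatives covered normalisation, filters, tools (DESeq2 1.42.0, limma 3.58.1 voom), cell sets, naming rules, another split and score, and each library left out.

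The members, relative lists, markers and tests were chosen with earlier results of these data known. Named genes were the 6 members, Gstp2 and Gstp3. Of each relative list they were the 3 measured genes of highest mean and the called gene of largest fold in each direction. For each member they were the 3 genes most like it. Gm-number and Rik genes were left out of the last. Other called relatives, and the neighbours in the ranking, were named after their values were seen.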

Additional observations from a re-analysis of the deposited data

Results flagged for a closer look

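The fitted difference between the upper and lower immediate early parts of the microglia was set against WT in the class II-deficient library. The fit has 1 deficient library and 1 residual degree of freedom. The genes were chosen with their deficient counts known, so the values are a description and no p is given. For Oser1 the deficient log2 difference exceeded the WT one by 1.78. The per-library log2 ratios were 0.29, 0.13 and 1.999 (WT 1, WT 2, deficient). For Ddit3 the deficient difference was lower, by -1.0003, with ratios of 1.51, 1.71 and 0.65. The values of Cdkn1a and Gdf15 were 1.13 and 1.14, the latter with 2 to 5 UMIs in each lower part. In absolute size Ddit3 was near Cdkn1a and Gdf15, but its sign was opposite to that of Oser1, Cdkn1a and Gdf15. The values of Gstp1 and Ppcs were 0.20 and -0.08. One deficient library cannot separate genotype from animal. Median scores also differed, at 3.10%, 1.59% and 0.912% in the upper parts, so the parts are not the same range of cells in each library.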

How the results depend on the processing

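Each member except Gdf15 kept its direction between genotypes under the edgeR alternatives and with 1 WT library left out. DESeq2 and limma voom were not used for the members' genotype fold changes. Gdf15 was -1.0002 without the upper immediate early part (from 40, 5 and 5 UMIs, the deficient level between the WT levels). It was -0.70 both without cluster 10 and under naming against other classes only. Ddit3 came to -0.032 without the upper part. With that part left out Oser1 was 0.52, Ppcs 1.20 and Cdkn1a -1.37. Without cluster 10, and with that naming, Oser1 was 0.74, Ppcs 1.19 and Cdkn1a -0.91. Naming against all other cells gave Oser1 1.40, Ppcs 1.12, Cdkn1a -1.21 and Ddit3 -0.72. With all retained cells Oser1 was 1.40, Ppcs 1.20 and Cdkn1a -0.90, and putting back left-out clusters gave 1.42 for Oser1. Leaving out 1 WT library gave 1.20 to 2.51 for Gdf15, 1.41 to 1.44 for Oser1, 0.97 to 1.08 for Gstp1, 1.10 to 1.13 for Ppcs, -0.83 to -0.78 for Cdkn1a and -0.56 to -0.36 for Ddit3. DESeq2 called 466 genes between genotypes (edgeR 988), 2 relatives higher and 12 lower, 463 genes between score parts (edgeR 1542) and 23 for a different effect (edgeR 141). All retained cells gave 3 relatives higher. Without 1 library the calls between score parts ranged from 504 (without WT 1) to 2088 (without the deficient library). The difference of Oser1 between parts ranged from 0.35 to 1.31. It was 1.17 without WT 1 and 0.92 with DESeq2. Parts by a heat shock score gave -0.21 for Gdf15. Alternatives without cluster 10 or with other naming were chosen after seeing the data, and the cause of these changes was not tested. Leaving out cluster 10 removed 244 deficient cells but 0 and 6 WT cells. No paired analysis was possible because the deficient genotype has 1 library.

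With 98 to 260 UMIs of Gdf15 per library, and 1 WT 2 cell holding 39, its level rests on few cells. Gstp1 and Ppcs had 204 to 247 UMIs per library, and sub-cluster values under 10 UMIs do not resolve a difference. Outside the microglia, 4 to 19 deficient cells per class limit every value.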

Other observations

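Sub-cluster M4, led by Lgals3, Lpl and Cst7, which mark lipid-handling and disease-associated microglia, held 26, 36 and 17 cells. Gdf15 stood there at 54.2, 246 and 29.7 CPM (WT 1, WT 2, deficient). The WT 2 value came from 40 UMIs, 39 of them in 1 cell. Cluster 7 of all cells, led by interferon-response genes and left unnamed, held 203, 209 and 56 cells. In it Oser1 was at 62.8, 51.3 and 49.2 CPM, and 56 deficient cells are too few to order the libraries. Gstp1 was at 15.7, 18.0 and 43.7 there, and Ddit3 at 45.7, 52.6 and 54.6.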
